A study of Mus musculus with 20 samples.

Results

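The 5 genes described here, *Gnpat*, *Agps*, *Dhrs7b*, *Far1* and *Far2*, encode the enzymes that start ether lipid synthesis at the peroxisome. They were picked by gene symbol from the 50559 genes listed in the count table, and all 5 passed the filter on low counts in every comparison. RNA was sequenced from 20 mouse livers, 5 in each of 4 groups, and in all of them both *Cideb* alleles were floxed. The WT groups received AAV-TBG-GFP and kept *Cideb*, while the KO groups received AAV-TBG-Cre, whose hepatocyte promoter limits the deletion to hepatocytes and leaves the allele in other liver cells. One WT and one KO group were fed a Western diet (WD), rich in fat, sugar and cholesterol, and the others CDA-HFD, a high-fat diet that lacks choline and gives amino acids in place of protein. The labels give 3 months on either diet, whereas the text of the study describes a longer time on WD than on CDA-HFD. The vectors were given to young mice, several weeks old, and the labels give no age or sex for single livers. All CDA-HFD samples are numbered after all WD samples, and such a number does not name a batch. Diet cannot be told apart from feeding time, if this differed, or from anything else that changed between the diets.

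In ether lipids the first chain of the glycerol backbone is held by an ether bond in place of an ester bond, and in plasmalogens this becomes a vinyl ether. GNPAT, the dihydroxyacetone phosphate acyltransferase, places a fatty acid on dihydroxyacetone phosphate inside the peroxisome, and AGPS, the alkylglycerone phosphate synthase, then exchanges it for a fatty alcohol. The alcohol comes from FAR1 or FAR2, which reduce fatty acyl-CoA at the peroxisomal membrane, and FAR1 is widely regarded as the step that sets the pace. DHRS7B reduces the product, after which the endoplasmic reticulum completes the phospholipid. CIDEB itself is a hepatocyte protein of the lipid droplet and of lipoprotein loading.

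The upstream sequences of *Far1* and *Agps* are shown because these genes rose together on CDA-HFD in WT livers. Both come from RefSeq promoters on GRCm38.p6, cover the 250 bases before the annotated start on the plus strand, and overlap no annotated gene. The window of *Far1* is chr7:113513584-113513833 and that of *Agps* is chr2:75831927-75832176. Capitals mark CCAAT and GGGCGG on either strand, the letters searched together with CACGTG, TGACGTCA and AGGTCA repeated with 1 base between the copies.
Far1: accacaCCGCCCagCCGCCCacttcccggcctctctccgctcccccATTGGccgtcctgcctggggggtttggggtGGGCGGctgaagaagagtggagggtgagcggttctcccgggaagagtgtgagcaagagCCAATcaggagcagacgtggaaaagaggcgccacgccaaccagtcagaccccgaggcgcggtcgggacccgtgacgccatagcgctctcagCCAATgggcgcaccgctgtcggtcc
Agps: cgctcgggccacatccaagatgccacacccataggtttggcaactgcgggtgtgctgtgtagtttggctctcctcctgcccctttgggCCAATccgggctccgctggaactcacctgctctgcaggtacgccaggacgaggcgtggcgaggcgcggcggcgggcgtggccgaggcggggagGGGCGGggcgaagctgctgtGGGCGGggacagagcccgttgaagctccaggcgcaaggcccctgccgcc
The *Far1* window held 3 matches to CCAAT, starting 204, 116 and 25 bases before the start, and 3 to GGGCGG. The *Agps* window held 1 match to CCAAT, 162 bases before the start, and 2 to GGGCGG. *Gnpat*, *Far2* and *Dhrs7b* had no CCAAT in their windows, *Gnpat* had 1 CACGTG and *Dhrs7b* had 1 TGACGTCA. For GGGCGG, *Far2* had 2 matches and *Gnpat* had 1, while *Dhrs7b* had none, so this motif was not limited to *Far1* and *Agps*. The windows of *Gnpat* and *Far2* overlap exons of other annotated genes. Of 32851 mouse promoter windows of 250 bases, 33.8% held CCAAT, 32.7% GGGCGG, 6.02% CACGTG, 1.55% TGACGTCA and 0.0335% the AGGTCA repeat, so a match is common for the first 2 motifs. These matches describe letters in a window and not binding.

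The number of reads that the authors counted on genes was 11697049 in the shallowest and 16827147 in the deepest library. Levels are given here as CPM, the count of a gene scaled to its library size, after TMM scaling of the 20 libraries. The deleted gene followed its labels: the *Cideb* reads numbered 52 to 100 in WT against 0 to 5 in KO livers fed WD, and 35 to 60 in WT against 0 to 6 in KO livers fed CDA-HFD. Of the 1488 exonic bp of *Cideb*, 1136 are shared with *Nop9* on the other strand, so its read numbers are uncertain. KO liver 5 on CDA-HFD stood apart from the other 4 KO livers of its group in *Far1* and *Agps*, and their differences are given with and without it. The summed level of the hepatocyte markers, 11 of 12 listed being in the table, was 34386 CPM in that liver, 70585 to 101118 CPM in KO livers 1 to 4, while WT livers on CDA-HFD had 31996 to 69233 CPM. The labels number the livers and do not say that each came from a mouse of its own, so p-values measure only the spread between these livers, which may be technical.

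*Gnpat* had the highest level of the 5 genes per kb of exonic length and *Far2* the lowest in every group. In WT livers on WD, *Gnpat* was at 16.5 ± 1.12 CPM per kb, *Dhrs7b* at 9.02 ± 1.13, *Agps* at 3.25 ± 0.262, *Far1* at 1.24 ± 0.202 and *Far2* at 0.521 ± 0.107 CPM per kb (SD, n = 5 each). No neighbors in this order overlapped. In WT livers on CDA-HFD, *Agps* at 5.41 ± 0.742 CPM per kb and *Dhrs7b* at 5.36 ± 0.492 CPM per kb (SD, n = 5 each) could not be ordered. The level of *Far2* rested on 20 to 69 reads per liver and is the least precise. All 5 genes lie on plus strands of GRCm38. *Agps* (ENSMUSG00000042410.16; chr2:75832177-75931350) and *Dhrs7b* (ENSMUSG00000042569.13; chr11:60830631-60860195) share no exonic base with another gene. *Far1* (ENSMUSG00000030759.16; chr7:113513834-113571511) shares 80 exonic bp, *Gnpat* (ENSMUSG00000031985.9; chr8:124863033-124890057) 280 bp and *Far2* (ENSMUSG00000030303.15; chr6:148047259-148182758) 918 bp with neighbors, and reads over those bases are uncertain, as the sources do not say if strand was used in counting.

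**Figure D1:**
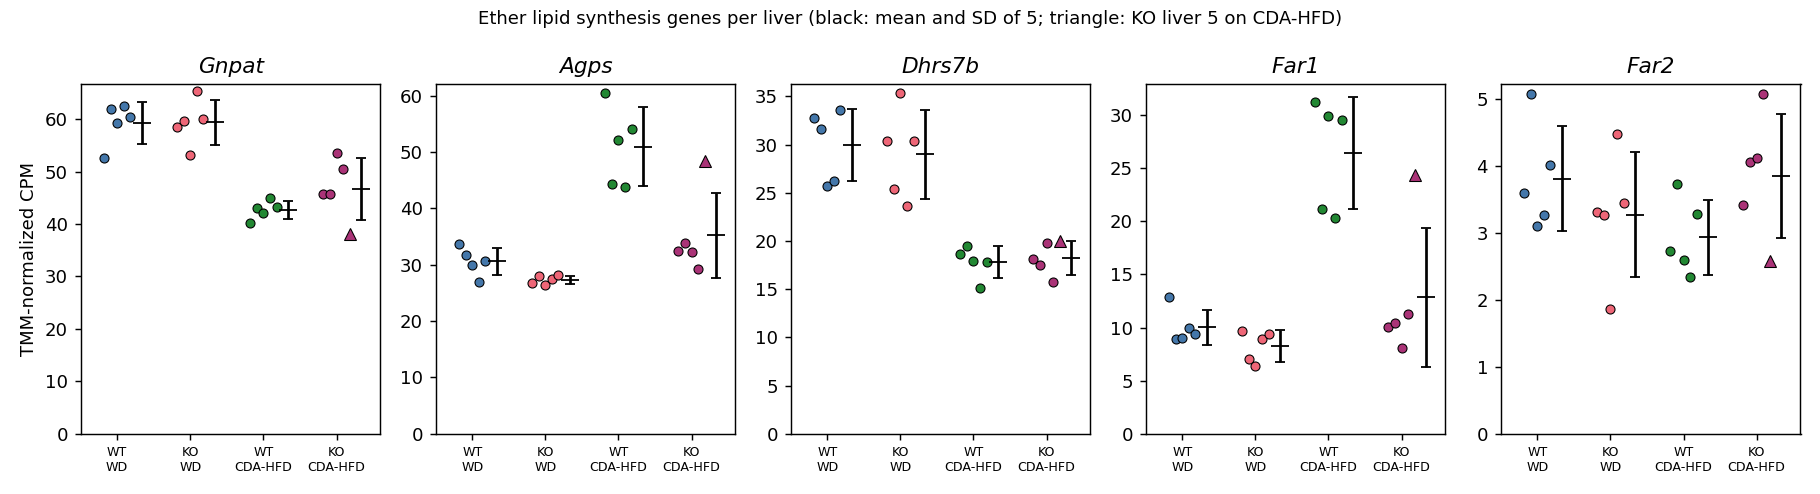
TMM-normalized CPM (linear axes from 0) of each gene in each of the 20 livers by group, with the mean and SD of 5 livers in black and KO liver 5 on CDA-HFD as a triangle. *Far1* and *Agps* were highest in WT livers on CDA-HFD, where *Gnpat* and *Dhrs7b* were lower than on WD, and the triangle lies with the WT livers on CDA-HFD for *Far1* and *Agps*.

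In WT livers, *Far1* and *Agps* were higher and *Gnpat* and *Dhrs7b* lower on CDA-HFD than on WD. *Far1* was at 12.9, 8.94, 9.01, 9.92 and 9.41 CPM in the 5 WT livers on WD. It was at 31.3, 21.1, 29.9, 20.3 and 29.6 CPM in the 5 WT livers on CDA-HFD. Every CDA-HFD liver was above every WD liver, and *Far1* rose by 1.39 ± 0.15 on the log2 scale (SE), a 2.62-fold rise (edgeR adjusted p = 3.97e-05). *Agps* was at 33.7, 31.7, 29.9, 27.0 and 30.6 CPM on WD. It was at 60.4, 44.3, 52.2, 43.8 and 54.0 CPM on CDA-HFD. The groups again did not overlap, and *Agps* rose by 0.73 ± 0.10 on the log2 scale (SE), which is 1.66-fold (edgeR adjusted p = 0.000135).

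The acyltransferase and the reductase went the other way in the same livers. *Gnpat* was at 52.5, 61.9, 59.3, 62.5 and 60.5 CPM in WT livers on WD and at 40.2, 43.1, 42.1, 44.9 and 43.2 CPM in WT livers on CDA-HFD. It fell by 0.48 ± 0.07 on the log2 scale (SE, edgeR adjusted p = 0.000192) with no overlap. *Dhrs7b* was at 32.8, 31.6, 25.7, 26.2 and 33.6 CPM on WD and at 18.7, 19.5, 17.95, 15.2 and 17.8 CPM on CDA-HFD. It fell by 0.76 ± 0.10 on the log2 scale (SE, edgeR adjusted p = 0.000139), also with no overlap. *Far2*, the second fatty acyl-CoA reductase, ranged from 3.10 to 5.07 CPM on WD and from 2.35 to 3.74 CPM on CDA-HFD, a log2 fold change of -0.38 ± 0.19 (SE, edgeR adjusted p = 0.108), which is within the spread between livers. Thus 4 of 5 genes passed, 2 in each direction, where 51.1% of all genes tested passed, 25.9% higher and 25.2% lower, and where 37.1% of all genes did not overlap between the diets. Passing was therefore common among all genes, and 1345 of 16726 genes tested had a higher log2 fold change than *Far1*. The exact two-sided permutation p was 0.00794 for each of these 4 genes, the smallest that 252 splits of 5 livers against 5 allow, and 0.0198 after adjustment over 15 tests. The WT livers on CDA-HFD also belong to the contrast, KO against WT on CDA-HFD, taken to be in view when the genes were chosen, so this comparison is not independent of that choice. Scaling by library size alone moved the median log2 fold change of all genes to 0.42, with 9120 genes higher and 1570 lower against 4335 and 4207 under TMM. On that scale *Far1* was at 1.82, *Agps* at 1.16, *Gnpat* at -0.06 (edgeR adjusted p = 0.499), *Dhrs7b* at -0.34 (edgeR adjusted p = 0.0555) and *Far2*, turned in sign, at 0.03, so *Gnpat* and *Dhrs7b* fell relative to most genes and not on every scale.

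Ratios of 2 genes within the same liver do not depend on how libraries are scaled. The ratio of *Far1* to *Gnpat* CPM was 0.245, 0.144, 0.152, 0.159 and 0.156 in WT livers on WD and 0.778, 0.491, 0.709, 0.451 and 0.684 in WT livers on CDA-HFD, a 3.64-fold higher mean with no overlap. The ratio of *Agps* to *Gnpat* CPM was 0.519 ± 0.0760 on WD and 1.20 ± 0.210 on CDA-HFD in WT livers (SD, n = 5 each by group), 2.31-fold higher with no overlap. *Far1* also rose relative to *Agps*, by 1.57-fold, and relative to *Far2* per kb, by 3.40-fold, both with no overlap. Each of the 4 ratios had an exact two-sided permutation p of 0.00794, or 0.0190 after adjustment over 12 tests. For the ratios to *Gnpat* this p adds no support, as *Far1* and *Agps* rose and *Gnpat* fell without overlap in these livers. Cell type markers moved with these changes. In WT livers on CDA-HFD, 9 of 11 hepatocyte and 8 of 12 endothelial markers fell, while 11 of 12 stellate cell, 9 of 9 cholangiocyte and 7 of 10 lymphocyte markers tested rose, and 6 of 12 macrophage markers rose and 2 fell. The summed macrophage markers were at 418 to 1333 CPM on WD and 1796 to 3718 CPM on CDA-HFD, the stellate cell markers at 735 to 1389 and 2614 to 4328 CPM, the cholangiocyte markers at 43.9 to 185 and 402 to 863 CPM, and the lymphocyte markers, with *Trac* at 0 in every liver, at 4.96 to 13.9 and 14.9 to 27.1 CPM. The summed hepatocyte markers were at 60875 to 101624 CPM on WD and 31996 to 69233 CPM on CDA-HFD, and the endothelial markers at 1097 to 1181 and 841 to 954 CPM. In whole liver, more cells of a type and more RNA per cell cannot be told apart, and the part of these cells in the levels of the 5 genes was not tested.

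**Figure D2:**
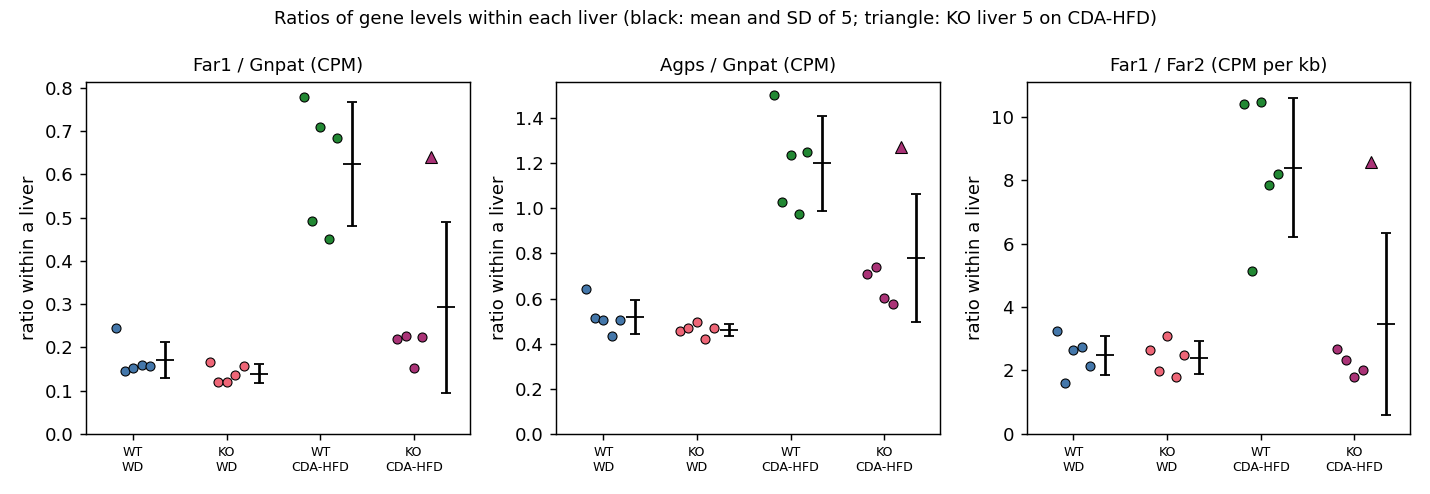
Within-liver ratios of *Far1* to *Gnpat* and *Agps* to *Gnpat* (CPM) and of *Far1* to *Far2* (CPM per kb) in each of the 20 livers, with the mean and SD of 5 livers in black and KO liver 5 on CDA-HFD as a triangle. All 3 ratios were higher in every WT liver on CDA-HFD than in any WT liver on WD, and KO livers 1 to 4 on CDA-HFD lie below the WT livers on CDA-HFD.

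The KO and WT livers on WD share no liver with the contrast of KO and WT on CDA-HFD, although their results too were known when the genes were chosen, and none of the 5 genes passed there. *Agps* was at 26.7, 27.9, 26.4, 27.4 and 28.1 CPM in the 5 KO livers, a narrow range that overlapped the lowest WT liver. Its log2 fold change was -0.16 ± 0.08 (SE, edgeR adjusted p = 0.475), and the exact two-sided permutation p was 0.0317, or 0.0595 after adjustment over 15 tests. *Far1* was at 9.66, 7.08, 6.34, 8.89 and 9.40 CPM in KO livers, within the range of WT livers or below it. Its log2 fold change was -0.27 ± 0.15 (SE, edgeR adjusted p = 0.554). *Gnpat* was at 53.2 to 65.4 CPM, *Dhrs7b* at 23.6 to 35.3 CPM and *Far2* at 1.86 to 4.48 CPM in KO livers. Their log2 fold changes were 0.00 ± 0.08, -0.05 ± 0.12 and -0.21 ± 0.23 (SE), with adjusted p-values of 0.993, 0.922 and 0.777 from edgeR. The count of 0 stands against 0.0757% of all genes, 12 of 15848, that passed on WD, while 1702 genes had an unadjusted p under 0.05 and DESeq2 called 164. Of the 5 genes, 0 had an unadjusted p under 0.05 by edgeR, with *Agps* lowest at 0.0544, and DESeq2 called 0 of them. Of the cell type markers, 0 of those tested in any of the 6 lists passed on WD by edgeR, and 6 had an unadjusted p under 0.05, of which 3 were macrophage markers. None of the 4 within-liver ratios passed on WD, where the exact two-sided permutation test gave p from 0.119 to 0.849.

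On CDA-HFD, *Far1* and *Agps* were lower in KO than in WT livers, and 4 of the 5 KO livers lay below every WT liver. The choice of genes does not name the values behind it, and this contrast was taken to be among them, so the values are a description without a test. *Far1* was at 10.03, 10.4, 8.11, 11.3 and 24.4 CPM in the 5 KO livers, against 20.3 to 31.3 CPM in WT livers. These were KO livers 1 to 4, within the range of the livers on WD, and KO liver 5 was above 2 WT livers. The raw reads on *Far1* were 122 to 164 in KO livers 1 to 4, 406 in KO liver 5 and 300 to 622 in WT livers. *Agps* was at 32.5, 33.8, 32.3, 29.2 and 48.4 CPM in KO livers, against 43.8 to 60.4 CPM in WT livers. Again only KO liver 5 reached the WT range. The log2 fold changes were -1.04 ± 0.27 for *Far1* and -0.54 ± 0.14 for *Agps* (SE), and without KO liver 5 they were -1.41 and -0.68. Without single livers they ranged from -1.41 to -0.92 for *Far1* and from -0.68 to -0.47 for *Agps*, and under library size alone they were -1.19 and -0.71. The means of KO livers 1 to 4 were 9.97 ± 1.35 CPM for *Far1* and 31.9 ± 1.94 CPM for *Agps* (SD, n = 4).

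The other 3 genes had positive log2 fold changes between KO and WT livers on CDA-HFD with all livers, that of *Dhrs7b* without a clear sign. *Gnpat* was at 45.8, 45.8, 53.6, 50.6 and 38.0 CPM in KO livers, so KO livers 1 to 4 were above all WT livers and KO liver 5 was below all of them. Its log2 fold change was 0.13 ± 0.09 (SE) with all livers and 0.19 without KO liver 5. *Dhrs7b* ranged from 15.7 to 20.04 CPM in KO livers, and its log2 fold change was 0.03 ± 0.10 (SE) with all livers and -0.0067 without KO liver 5. *Far2* was at 3.41, 4.06, 4.12, 5.07 and 2.58 CPM in KO livers, and its log2 fold change was 0.38 ± 0.21 (SE) with all livers and 0.50 without KO liver 5. The groups overlapped for all 5 genes. As a count only, from which nothing is read, 2 of 5, *Far1* and *Agps*, were past the threshold where 15.5% of all genes tested were, 8.19% higher and 7.29% lower, and where 9.57% of all genes did not overlap. Without any single one of WT livers 1, 3 and 5 and KO livers 1 to 4, 0 of 5 were past it. In those fits 709 to 1581 of all genes tested were. Without KO liver 5, 3 of 5 were, with *Far2* higher, where 7201 of 17411 genes tested were. Under library size alone, which moved the median of all genes to -0.19, *Gnpat* was at -0.08 and *Dhrs7b* at -0.16.

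KO liver 5 also differed from the other KO livers on CDA-HFD in cell type markers. Its summed macrophage markers were at 2088 CPM against 637 to 845 CPM in KO livers 1 to 4, its stellate cell markers at 4495 against 1475 to 1647 CPM, its cholangiocyte markers at 723 against 87.4 to 201 CPM, and its lymphocyte markers at 34.6 against 12.2 to 19.1 CPM. Its endothelial markers summed to 819 CPM against 1114 to 1232 CPM. Between KO and WT livers on CDA-HFD, 3 of 11 hepatocyte markers were higher and 5 of 12 macrophage and 2 of 12 stellate cell markers lower by edgeR, while 0 of the 9 cholangiocyte, 12 endothelial and 11 lymphocyte markers tested passed, with an unadjusted p under 0.05 for 2, 6 and 0 of them. The part of these cells in the levels of *Far1* and *Agps* was not tested.

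**Figure D3:**
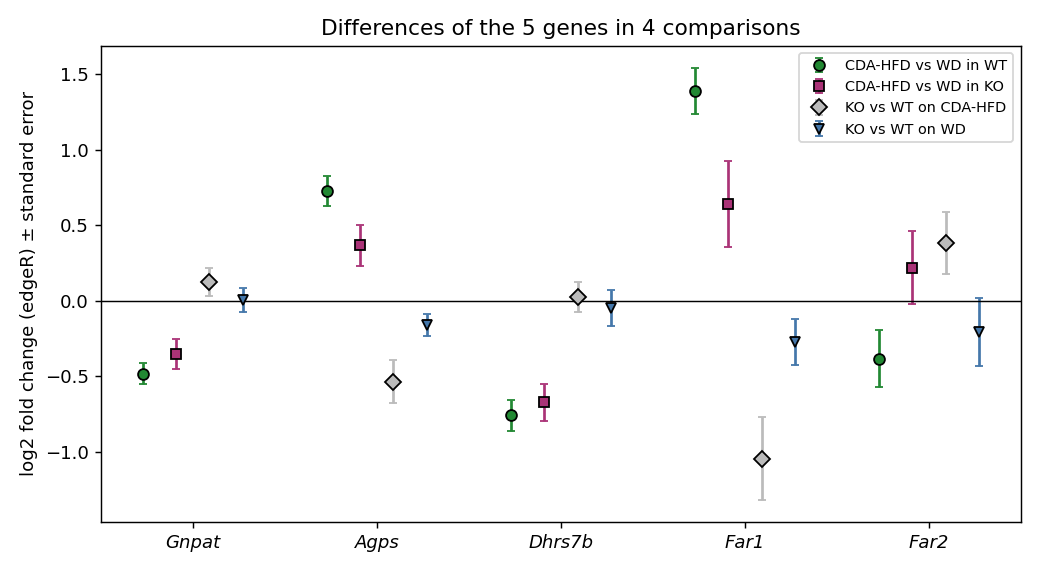
Log2 fold changes from edgeR with their standard errors for the 5 genes in 4 comparisons of 10 livers each. *Far1* and *Agps* have positive changes with CDA-HFD, 1.39 and 0.73 in WT livers, and negative ones between KO and WT livers on CDA-HFD, -1.04 and -0.54, a contrast shown as a description.

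Within KO livers, *Far1* and *Agps* were higher on CDA-HFD in mean level and did not pass the test between the diets in the 10 KO livers. *Far1* had a log2 fold change of 0.64 ± 0.28 (SE, edgeR adjusted p = 0.141) from KO livers on WD to KO livers on CDA-HFD, and 0.26 (edgeR adjusted p = 0.291) without KO liver 5. *Agps* had a log2 fold change of 0.37 ± 0.13 (SE, edgeR adjusted p = 0.0803), and 0.21 (edgeR adjusted p = 0.0798) without KO liver 5. With all 20 libraries in 1 fit *Agps* passed at 0.37 (edgeR adjusted p = 0.0275). Every KO liver on CDA-HFD was nevertheless above every KO liver on WD for *Agps* (exact two-sided permutation p = 0.00794, 0.0198 after adjustment over 15 tests). *Dhrs7b* fell by 0.67 ± 0.12 on the log2 scale (SE, edgeR adjusted p = 0.0051), with no overlap. *Gnpat* fell by 0.35 ± 0.10 (SE, edgeR adjusted p = 0.0319) with all KO livers. That call was lost without any single one of KO livers 1, 2, 4 and 5 on WD or KO livers 1 and 2 on CDA-HFD, with a replicate block, with no filter on low counts and under library size alone. *Far2* had a log2 fold change of 0.22 ± 0.24 (SE, edgeR adjusted p = 0.571). In all, 2 of 5 genes passed, both lower, where 17.0% of all genes tested passed, 9.19% higher and 7.85% lower, and where 15.2% did not overlap between the diets. Library size alone moved the median of all genes to 0.25, and on that scale *Agps* passed at 0.64 (edgeR adjusted p = 0.0354) and *Dhrs7b* was at -0.42 (edgeR adjusted p = 0.0777). The ratio of *Agps* to *Gnpat* CPM in KO livers was 1.69-fold higher on CDA-HFD with no overlap (exact two-sided permutation p = 0.00794, 0.0190 after adjustment over 12 tests). It was 0.419 to 0.496 on WD, and 0.577 to 0.738 in KO livers 1 to 4 and 1.27 in KO liver 5 on CDA-HFD. The p of this ratio adds little support, as *Agps* alone did not overlap between these livers and *Gnpat* was lower in mean. The ratio of *Far1* to *Gnpat* CPM was 0.119 to 0.165 in KO livers on WD and 0.219, 0.227, 0.151, 0.224 and 0.640 on CDA-HFD (exact two-sided permutation p = 0.0238, 0.0476 after adjustment). The KO livers on CDA-HFD belong to the contrast taken to be in view when the genes were chosen. Between the diets in KO livers, 5 of 12 macrophage, 4 of 12 stellate cell, 5 of 8 cholangiocyte, 5 of 7 lymphocyte and 1 of 12 endothelial markers tested rose, 2 of 11 hepatocyte markers fell, and their part in these values was not tested.

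The difference between the KO effect on CDA-HFD and that on WD is given as an estimate only, since it holds the contrast on CDA-HFD. It was -0.76 ± 0.33 for *Far1* and -0.37 ± 0.16 for *Agps* on the log2 scale (SE). It was 0.60 ± 0.31 for *Far2*, 0.13 ± 0.12 for *Gnpat* and 0.08 ± 0.16 for *Dhrs7b* (SE). Without KO liver 5 on CDA-HFD the values for *Far1* and *Agps* were -1.13 and -0.51. As a count only, from which nothing is read, with all 20 livers 0 of the 5 genes were past the threshold by edgeR and by DESeq2. By edgeR 0.556% of all genes were. Without KO liver 5, 2 of the 5 genes were, beside 2138 of 17995 genes tested. By mean CPM the order of groups for *Far1* was WT on CDA-HFD at 26.4 ± 5.27, KO on CDA-HFD at 12.8 ± 6.54, WT on WD at 10.03 ± 1.63 and KO on WD at 8.27 ± 1.48 (SD, n = 5 each). *Agps* had the same order, at 51.0 ± 6.99, 35.2 ± 7.57, 30.6 ± 2.47 and 27.3 ± 0.761 CPM (SD, n = 5 each). Neighboring groups in either order overlapped, and WT livers on CDA-HFD lay above all livers on WD.

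The next enzymes and the import machinery of the pathway were followed with a list of 54 genes in 6 groups, all tested in every comparison. The list was chosen with earlier results of these data known, so its shares beside those of all genes are descriptions. In WT livers on CDA-HFD, 37 of the 54 fell and 7 rose, against 25.2% of all genes lower and 25.9% higher, with a median log2 fold change of -0.66 against -0.00 over all genes. Under library size alone 27 fell and 14 rose. For the completion of ether phospholipids, 8 of 11 genes fell and 1 rose. *Chpt1*, which joins choline headgroups to diglyceride, fell by 1.91 on the log2 scale (edgeR adjusted p = 2.85e-06). *Pcyt2*, which activates ethanolamine, fell by 1.05 (edgeR adjusted p = 3.53e-05), and *Selenoi*, the ethanolamine phosphotransferase, by 0.68 (edgeR adjusted p = 0.000129). *Tmem189*, the older symbol of the plasmalogen desaturase, was at 32.0 ± 3.65 CPM on WD and 16.7 ± 3.59 CPM on CDA-HFD in WT livers (SD, n = 5 each) and fell by 0.95 (edgeR adjusted p = 0.00026). Its exons are partly shared with an annotated read-through gene, so its count is uncertain. The lipid phosphate phosphatase gene *Plpp2* rose by 0.83 (edgeR adjusted p = 0.00444).

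Of the genes for peroxisomal import, 11 of 13 fell and 0 rose in WT livers on CDA-HFD. *Pex7*, the import receptor for AGPS, fell by 0.96 on the log2 scale (edgeR adjusted p = 3.14e-05), opposite to *Agps* itself. *Pex5*, the receptor for GNPAT and the partner of PEX7, fell by 1.05 (edgeR adjusted p = 2.54e-05), and *Pex16*, which acts in membrane assembly, by 1.24 (edgeR adjusted p = 9.01e-06). The other PEX7 cargo fell in 3 of 3 genes, among them the thiolases *Acaa1b*, by 2.46, and *Acaa1a*, by 0.83 (edgeR adjusted p of 3.56e-06 and 0.000547). These thiolases are near-identical copies and the split of reads between them is uncertain. In the supply of acyl-CoA, dihydroxyacetone phosphate and precursors, 10 of 12 genes fell. The acyl-CoA synthetase *Acsl5* fell by 1.58 (edgeR adjusted p = 2.85e-06). In ether lipid breakdown and fatty aldehyde oxidation, 4 of 7 fell and 1 rose. The fatty aldehyde dehydrogenase *Aldh3a2* fell by 1.61, the phospholipase *Pla2g6* by 1.43 and the alkylglycerol monooxygenase *Agmo* by 0.62 (edgeR adjusted p of 2.32e-05, 1.82e-05 and 0.00506), while the phosphodiesterase *Gdpd1* rose by 1.34 (edgeR adjusted p = 0.00236). *Gdpd1* rested on only 8 to 34 reads per WT liver on WD and 47 to 110 on CDA-HFD. The genes for platelet-activating factor, an ether lipid mediator, ran the other way, with 5 of 8 higher and 1 lower. Its receptor *Ptafr*, carried by myeloid cells, rose by 2.97 and the plasma hydrolase *Pla2g7* by 1.69 (edgeR adjusted p of 2.66e-05 and 0.000343), while the intracellular hydrolase *Pafah2* fell by 1.34 (edgeR adjusted p = 1.25e-05).

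**Figure D4:**
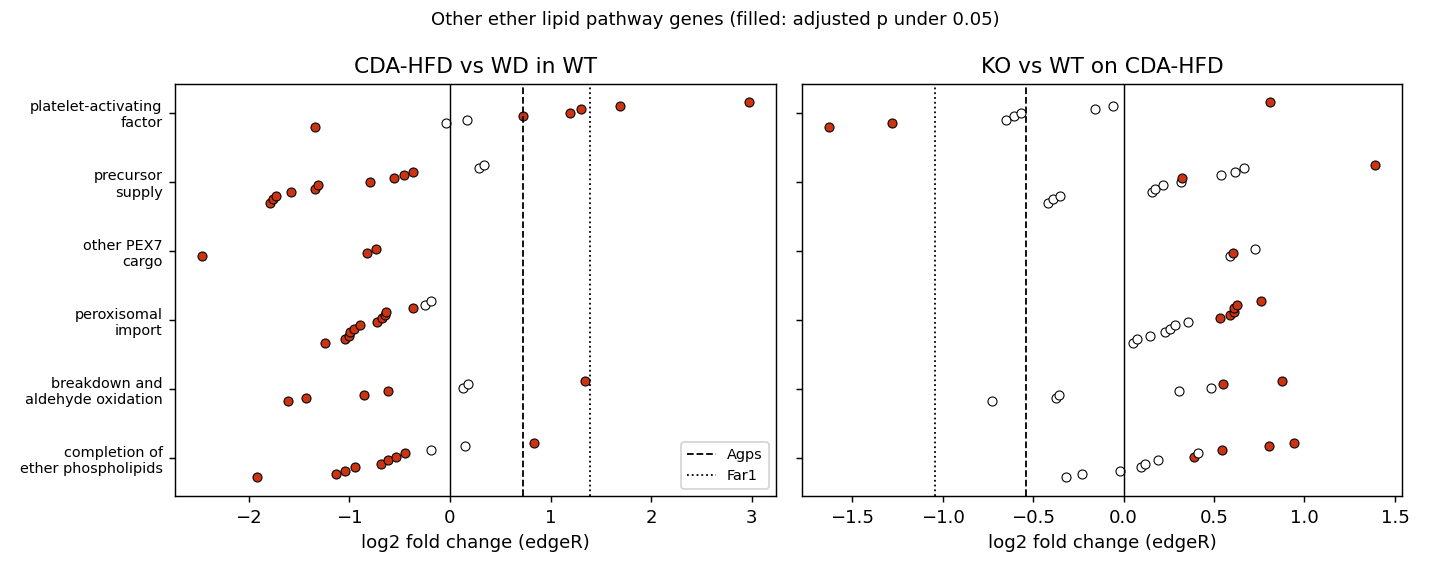
Log2 fold changes from edgeR of the 54 other pathway genes in 6 groups, for CDA-HFD against WD in WT livers (left) and KO against WT livers on CDA-HFD (right), filled where the adjusted p is under 0.05, with *Agps* (dashed) and *Far1* (dotted) as lines. On the left most points lie below 0 and *Agps* and *Far1* above it, and on the right most filled points lie above 0 and *Agps* and *Far1* below it.

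Between KO and WT livers on CDA-HFD, 16 of the 54 genes rose and 2 fell, 33.3% of the list against 15.5% of all genes, with a median log2 fold change of 0.27 against 0.00. Under library size alone 8 rose and 5 fell. As the list was chosen with earlier results known, these shares are a description and give no support for the list as a set. The adjusted p-values of its genes are not independent of that choice. Peroxisomal import rose in 6 of 13 genes and fell in 0. *Pex16* rose by 0.63 and *Pex5* by 0.61 on the log2 scale (edgeR adjusted p of 0.0137 and 0.0179). *Pex7* was at 30.7 to 41.8 CPM in WT and 33.2 to 58.8 CPM in KO livers, and its log2 fold change was 0.36 (edgeR adjusted p = 0.122). In the completion group 4 of 11 genes rose, among them the ethanolamine kinase *Etnk2* by 0.94, *Chpt1* by 0.81 and *Selenoi* by 0.39 (edgeR adjusted p of 0.0137, 0.0150 and 0.0463). *Tmem189* had a log2 fold change of -0.23 (edgeR adjusted p = 0.333), and *Agmo* and *Aldh3a2* of 0.31 and 0.48 (edgeR adjusted p of 0.308 and 0.119). In breakdown 2 of 7 genes rose, the lysoplasmalogenase *Tmem86b* by 0.87 and *Pla2g6* by 0.55 (edgeR adjusted p of 0.0152 and 0.0295). *Acaa1a* rose by 0.61 as 1 of 3 other PEX7 cargo genes, and in precursor supply 2 of 12 rose, among them *Acsl1* by 1.39 (edgeR adjusted p of 0.0304 and 0.0392). Of 8 genes for platelet-activating factor, *Pafah2* rose by 0.81 (edgeR adjusted p = 0.0147), and *Ptafr* fell by 1.63 and *Pla2g7* by 1.28 (edgeR adjusted p of 0.0201 and 0.0241).

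These counts turned on single livers. The number past the threshold was 36 without KO liver 5, and 5 to 9 without any single one of WT livers 1, 3 and 5 or KO livers 1 to 4. The counts over all genes moved the same way, from 2664 with all livers to 7201 without KO liver 5. They were 709 to 1581 without any single one of those 7 livers, so this dependence was not particular to the pathway genes. *Etnk2*, *Chpt1*, *Tmem86b*, *Pex16* and *Pafah2* passed under each of the 17 alternatives run, while *Selenoi* lost its call under 10 of them. *Pex5* lost it under 3 of the 17, each without a single liver (WT liver 3, KO liver 1 or KO liver 3), and *Ptafr* under 4, without WT liver 3 or KO liver 1, 2 or 3. *Pla2g6* and *Acaa1a* lost it under 8, and *Acsl1* and *Pla2g7* under 7, in each case without any single one of the 7 livers above. The markers given above for KO liver 5 and for macrophages moved with *Ptafr* and *Pla2g7* as well, and their part was not tested.

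Within KO livers, 22 of the 54 genes were lower on CDA-HFD than on WD and 3 were higher. Of all genes 7.85% were lower and 9.19% higher, and the median log2 fold change of the 54 was -0.34. Under library size alone 13 fell and 6 rose. *Pex7* fell by 0.60, *Pex16* by 0.68 and *Pex5* by 0.49 on the log2 scale (edgeR adjusted p of 0.00969, 0.00597 and 0.0348) among 7 of 13 import genes that fell. In the completion group 3 of 11 fell and 1 rose. *Lpcat3*, an acyltransferase of the second chain, fell by 1.07, *Chpt1* by 1.02 and *Tmem189* by 0.63, while *Plpp1* rose by 0.57 (edgeR adjusted p of 0.000161, 0.0023, 0.0152 and 0.0386). *Selenoi* and *Agmo* had log2 fold changes of -0.23 and -0.17 (edgeR adjusted p of 0.147 and 0.530). *Aldh3a2* fell by 1.20 and *Pla2g6* by 0.63, 2 of 7 in breakdown, and *Acaa1b* by 2.29 and *Acaa1a* by 0.49, 2 of 3 other PEX7 cargo genes (edgeR adjusted p of 0.0023, 0.0150, 0.000339 and 0.0475). In precursor supply 7 of 12 fell, among them *Acsl5* by 1.16 and the glycerol phosphate dehydrogenase *Gpd2* by 1.15 (edgeR adjusted p of 0.000562 and 0.00146). *Ptafr* rose by 1.77, or 1.19 without KO liver 5 on CDA-HFD, and *Lpcat2*, which makes platelet-activating factor, by 0.95, while *Pafah2* fell by 0.57 (edgeR adjusted p of 0.0177 with all livers, 0.0492 and 0.0234). *Pex5*, *Plpp1*, *Acaa1a* and *Lpcat2* lost their calls without any single one of 7, 7, 9 and 8 of the 10 livers, respectively, and *Pafah2* without KO liver 5 on WD. A replicate block took the call from *Ptafr* (edgeR adjusted p = 0.0594) and *Lpcat2*, RLE factors from *Lpcat2*, other filters on low counts from *Acaa1a*, and library size alone from *Pex5*, *Tmem189*, *Pla2g6*, *Acaa1a* and *Pafah2*.

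On WD, 0 of the 54 genes passed between KO and WT livers by edgeR, where 0.0757% of all genes did. By edgeR 9 of the 54 had an unadjusted p under 0.05, beside 1702 of 15848 genes tested. DESeq2 called 4 of the 54 and 164 of all genes. *Tmem189* was at 27.3, 33.5, 30.9, 31.1 and 37.1 CPM in WT livers and 22.5, 20.9, 24.3, 16.9 and 25.8 CPM in KO livers. Every KO liver was below every WT liver, with a log2 fold change of -0.53 (edgeR adjusted p = 0.155, DESeq2 adjusted p = 0.0107). The groups also did not overlap for *Acsl1*, at means of 1627 and 2489 CPM, and *Abcd3*, at 771 and 989 CPM, both higher in KO livers with adjusted p-values of 0.204 and 0.239 from edgeR. These 2 genes were picked after their values were seen. Non-overlap was found for 2.22% of all genes. *Pex7* and *Pex5* had log2 fold changes of 0.01 and 0.06, *Selenoi* of -0.06, *Aldh3a2* of 0.08 and *Agmo* of -0.14 (adjusted p from 0.693 to 0.977 from edgeR). The difference of the KO effect between the diets had a median of 0.31 on the log2 scale over the 54 genes, against 0.02 over all genes. By edgeR 0 of the 54 passed for that difference, where 0.556% of all genes did. An unadjusted p under 0.05 by edgeR was found for 19 of the 54 and 2736 of 17804 genes tested. DESeq2 called 5 of the 54 and 434 of all genes. Without KO liver 5 on CDA-HFD, edgeR called 19 of the 54 and 2138 of 17995 genes tested.

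Over the 20 livers, log2 CPM of *Far1* and *Agps* had a Pearson r of 0.956, which was 0.803 with group means removed. *Gnpat* ran against *Agps* (r = -0.861, and -0.702 with group means removed) and *Far1* (r = -0.819, and -0.629). These and the next values are descriptions, since the livers share groups, libraries and scaling. KO liver 5 on CDA-HFD, far from its group in *Far1* and *Agps*, weighs heavily in the values with group means removed. Those values were not computed without it. With group means kept, r of *Far1* and *Agps* was 0.952 without that liver. Of 11037 genes compared, those most like *Far1* included *Sdcbp* (syntenin) and *Dock11*, with r of 0.981 and 0.979, or 0.917 and 0.935 with group means removed. *Agps* was most like *Soat1*, which esterifies cholesterol, *Anxa1* (annexin A1) and the transcription factor gene *Runx1*, each with r of 0.977, or 0.883, 0.893 and 0.919. *Anxa1* was at 51.1 to 128 CPM in WT livers on CDA-HFD and, on that diet, 8.38 to 12.1 CPM in KO livers 1 to 4 and 65.9 CPM in KO liver 5, against 5.70 to 13.2 CPM on WD. Among the genes most like *Gnpat* were *Isoc1* and *Atp5c1*, a subunit of ATP synthase, with r of 0.958 and 0.957, or 0.824 and 0.843. *Dhrs7b* was most like *Cs* (citrate synthase), *Ppp2r1b* and the lipid droplet gene *Plin2*, with r of 0.930, 0.924 and 0.919, or 0.679, 0.509 and 0.729. *Far2*, at its low counts, was most like *Scaf11*, *Mfsd8* and *Rap2c*, with r of 0.798, 0.788 and 0.775, or 0.799, 0.799 and 0.767, and these r are no finding at such counts.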

How the data were processed

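RNA-seq of 20 livers was analysed. The authors deposited raw read counts per gene symbol, whole numbers without normalization, in the layout of htseq-count. The build was mm10 per the submitters' notes, and the aligner and counting program are not given in the sources used here. The labels name a directional library kit and the methods another kit with single-end reads. The 5 tally entries for unassigned reads, 50.3% to 57.0% of all reads tallied, were left out. Groups came from the labels.

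The main test was the quasi-likelihood F test of edgeR 4.0.16 (limma 3.58.1, R 4.3.3), after filterByExpr and TMM scaling, on the 10 livers compared or on all 20 for the difference between diets. The threshold was a Benjamini-Hochberg adjusted p of 0.05, and the test was checked on simulated data. Single genes were also tested by exact permutation of CPM. Correlations were taken on log2 CPM (prior count 2). Lengths and loci came from GENCODE on GRCm38, and figures from Python 3.11.15 with matplotlib 3.10.9. Alternatives were RLE factors, library size only, DESeq2 1.42.0, no filter, all 20 libraries in 1 fit, a minimum of 10 counts per library, a replicate block and each liver left out.

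The 5 genes, the pathway list, the markers and the tests were chosen with earlier results of these data known. Named genes were the 5 genes, *Cideb*, up to 2 pathway genes per group, direction and comparison with the smallest adjusted p past the threshold, and *Pex7*, *Pex5*, *Tmem189*, *Selenoi*, *Aldh3a2* and *Agmo* always, and the 3 genes most correlated with each of the 5, leaving out predicted genes and those whose mean log2 CPM was under 2. Some genes this rule names are not reported here. No libraries of a group were copies: over 40 pairs, counts differed by 6.95 to 124 times sampling noise.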

Additional observations from a re-analysis of the deposited data

Results flagged for a closer look

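In 3 of the 20 sets of 5 livers (5 genes in 4 groups), the liver at one end lay far from the others relative to the range of the set by Dixon's 95% limit. For independent sets chance gives about 1. These sets are not independent, as the same liver was flagged for both *Far1* and *Agps*, so the counts cannot be compared. *Far1* in KO liver 5 on CDA-HFD was at 24.4 CPM against 8.11 to 11.3 CPM in the other 4, a gap of 0.803 of the range. *Agps* in the same liver was at 48.4 CPM against 29.2 to 33.8 CPM, a gap of 0.761 of the range. *Far1* in WT liver 1 on WD was at 12.9 CPM against 8.94 to 9.92 CPM, a gap of 0.750 of the range.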

How the results depend on the processing

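Of 85 differences of single genes, 74 kept their sign under every alternative run. On WD, DESeq2 called 4 pathway genes, and leaving out single livers gave 0 to 1 against 0. Between KO and WT livers on CDA-HFD, 2 of the 5 genes were past the threshold, a count from which nothing is read, 0 under library size alone and 0 to 3 without single livers, and for the pathway genes the count of 18 became 5 to 36. Of the 5 genes, 4 passed between the diets in WT livers and 2 under library size alone. In KO livers 2 passed, both lower, and 3 with all 20 libraries in 1 fit (*Agps* higher). With no filter or with a replicate block 1 passed, *Dhrs7b* lower, and without single livers 1 to 2. Under library size alone 1 passed, *Agps* higher, and neither of the 2 lower genes. For the difference between diets, 0 were past it and 0 to 2 without single livers, again as a count only. On WD the log2 fold change of *Gnpat* turned to -0.0036 with RLE factors, -0.022 with library size alone, -0.0024 with DESeq2, -0.0029 with no filter and -0.00068 with at least 10 counts, and ranged from -0.045 to 0.034 without single livers. Without single livers on WD, *Dhrs7b* ranged from -0.13 to 0.0060, *Pex7* from -0.025 to 0.028 and *Pex5* from -0.053 to 0.11. *Dhrs7b* ranged from -0.021 to 0.080 on CDA-HFD. Library size alone turned *Pex7* to -0.016 on WD, *Gnpat* to -0.081 and *Dhrs7b* to -0.16 between KO and WT on CDA-HFD, *Far2* to 0.033 between the diets in WT livers, and *Selenoi* to 0.0012 and *Agmo* to 0.052 in KO livers. It turned the difference between diets to -0.059 for *Gnpat* and -0.081 for *Dhrs7b*. The cause was not tested.

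Of all genes on WD, 12 passed, against 164 with DESeq2, 38 with no filter, 26 with all 20 libraries, 8 with library size alone and 2 with the block. On CDA-HFD 2664 passed (1409 higher), against 4146 with DESeq2, 4170 with all 20 libraries, 1709 with library size alone (517 higher), 7201 without KO liver 5 and 709 without KO liver 1. In KO livers 2792 passed between the diets (1506 higher), against 4476 with all 20 libraries, 3924 with library size alone (3371 higher) and 1568 without KO liver 2 on WD. For the difference between diets 99 passed (59 higher), against 434 with DESeq2, 52 with no filter, 63 with the block, 44 with library size alone (18 higher) and 35 to 2138 without single livers. The numbers in the labels did not pair the livers: same-numbered livers had residual correlations between -0.367 and 0.349 over the 4 comparisons, and 2 to 4 of 10 livers correlated best with their own number. With the replicate block 20 pathway genes passed between KO and WT livers on CDA-HFD, 44 between the diets in WT livers and 21 in KO livers. Counts of 20 to 69 reads limit *Far2*.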
